A study of Mus musculus with 8 samples.

Results

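The nuclear genes of respiratory complexes II, III and IV, with cytochrome c and the factors that assemble complex IV, were followed in adipose tissue macrophages (ATMs) of obese and lean mice. Members were taken by exact gene symbol from the annotation of the array, using features with 1 symbol and, for a gene with several, the brightest probe set. Of 33 listed genes, 30 were measured in this way, among 18820 genes in all: 3 of complex II, 9 of complex III, cytochrome c (Cycs), 11 subunits of complex IV and 6 of its assembly factors. Uqcrc2, Cox7c and Sco2 lay only on probe sets with several symbols and were not analysed here.

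ATMs were taken by magnetic bead selection for F4/80 from the stromal vascular cells of epididymal fat of male wildtype C57Bl/6 mice. In each of 4 experiments, 1 pool of cells from mice on a lard-based high-fat diet (HFD) and 1 from mice on a matched low-fat diet (LFD) were hybridised, giving 4 HFD and 4 LFD arrays. The HFD held 45 kcal% fat in experiments 1 and 3 and 60 kcal% in experiments 2 and 4, and the LFD held 10 kcal%. Per the labels the diets lasted 16, 15, 16 and 10 weeks in experiments 1, 2, 3 and 4, while the study's methods give 1 length for all. An array reads a pool and not a mouse, so the SDs below are the spread between pools. The SEs below are limma standard errors of a difference, which rest on pools and share variance across genes. The age of the mice is not given in the sources used here. Levels are deposited log2 values, and differences are HFD minus LFD on that scale.

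Complex II (succinate dehydrogenase) oxidises succinate in the Krebs cycle and passes the electrons to ubiquinone, complex III passes them on to cytochrome c, and complex IV (cytochrome c oxidase) hands them to oxygen. Complexes III and IV pump protons while doing so, and ATP synthase uses the resulting gradient. Complex IV carries copper and heme A, so its assembly needs copper carriers and the enzymes that make heme A. In macrophages, respiration and the handling of succinate change with the state of activation.

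The promoters of Sdhb, Uqcrc1, Cox10 and Cox6b2 are shown because these genes had the largest differences of complex II, complex III, the assembly factors and the complex IV subunits. Each runs from 250 bases before to 50 bases after the gene's start in RefSeq (GRCm38.p6), written 5′ to 3′ on the strand of the gene. Capitals mark the letters searched on both strands for 3 factors known to act on genes of the respiratory chain: CGCANGCG for NRF1, CCGGAAG for GABP and AANATGGCG for YY1.
Sdhb (chr4:140961021-140961320, plus strand): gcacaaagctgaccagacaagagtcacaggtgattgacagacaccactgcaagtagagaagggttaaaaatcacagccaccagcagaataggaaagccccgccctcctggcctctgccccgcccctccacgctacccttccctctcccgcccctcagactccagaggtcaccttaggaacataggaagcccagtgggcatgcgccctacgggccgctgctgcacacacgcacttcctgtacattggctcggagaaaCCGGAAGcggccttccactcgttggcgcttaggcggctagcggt
Uqcrc1 (chr9:108936398-108936697, plus strand): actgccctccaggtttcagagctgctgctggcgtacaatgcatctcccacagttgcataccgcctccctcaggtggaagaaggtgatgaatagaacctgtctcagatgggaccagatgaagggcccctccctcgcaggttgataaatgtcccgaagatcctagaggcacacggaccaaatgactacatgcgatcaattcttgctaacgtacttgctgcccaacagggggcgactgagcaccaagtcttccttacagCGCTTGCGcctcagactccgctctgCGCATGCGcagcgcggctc
Cox10 (chr11:64079423-64079722, minus strand): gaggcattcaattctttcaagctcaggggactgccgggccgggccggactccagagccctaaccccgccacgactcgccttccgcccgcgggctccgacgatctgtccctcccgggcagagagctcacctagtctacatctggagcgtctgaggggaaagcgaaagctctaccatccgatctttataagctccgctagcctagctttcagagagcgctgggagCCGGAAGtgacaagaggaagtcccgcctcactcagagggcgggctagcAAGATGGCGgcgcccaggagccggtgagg
Cox6b2 (chr7:4753045-4753344, minus strand): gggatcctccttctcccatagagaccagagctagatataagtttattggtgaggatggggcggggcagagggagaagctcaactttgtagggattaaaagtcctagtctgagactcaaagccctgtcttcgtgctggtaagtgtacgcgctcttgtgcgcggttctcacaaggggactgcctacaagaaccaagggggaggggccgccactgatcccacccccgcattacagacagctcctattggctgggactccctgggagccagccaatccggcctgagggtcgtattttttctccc
The GABP letters began 7 bases into the Sdhb transcript and 27 bases before the Cox10 start, the YY1 letters 22 bases into the Cox10 transcript, and the NRF1 letters 7 and 32 bases into the Uqcrc1 transcript. The Cox6b2 window held none of the 3. RefSeq promoters were matched for 23 of the 30 members, and the GABP letters stood in 12 of these (52.2%), against 12.1% of 18141 promoters of measured genes and 8.86% of all 32851 promoters in the table. The NRF1 letters stood in 6 of 23 (26.1%, against 12.1% of measured genes and 8.21% of all) and the YY1 letters in 1 (4.35%, against 3.34% and 2.38%). The median difference between diets (HFD minus LFD) was 0.09 for the 12 with the GABP letters and 0.07 for the 11 without. A match is a description of the window and does not show that a factor binds there.

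The arrays were checked against markers of the cells they were labelled as. The macrophage list (13 of 14 markers measured) averaged 8.78 to 10.41 on the HFD arrays and 7.51 to 10.73 on the LFD arrays, with both arrays of experiment 1 lowest. Adgre1, which encodes F4/80, stood at 8.58, 10.70, 10.67 and 10.19 on the HFD arrays of experiments 1 to 4 and at 6.54, 10.27, 10.95 and 9.95 on the LFD arrays. The endothelial list (18 markers) was highest in experiment 1, at 10.12 on the HFD array and 10.46 on the LFD array, and between 5.62 and 8.94 on the others. The proliferation list (7 of 8 measured) ran from 5.90 to 6.74 on HFD arrays and from 5.09 to 6.15 on LFD arrays and was higher on the HFD array in each experiment. The B cell list (4 of 5 measured) did not overlap, at 3.76 to 3.96 on HFD arrays and 4.00 to 4.38 on LFD arrays. Of its markers, 3 were below the limit of dim signals (a log2 of 4.32, or 20 on the linear scale) on all 8 arrays. Cd79b was above it on all 8, at 4.37 to 5.31 on HFD arrays and 4.78 to 7.03 on LFD arrays (difference -0.88). The T cell and NK cell lists were also lower on the HFD array in each experiment, with overlapping ranges. Of their markers, 4 of 7 and 4 of 6 measured were dim on all 8 arrays. The T cell markers did not share a direction: Cd4 differed by -1.04, Cd3e, Cd3g and Cd5 by -0.14, -0.15 and -0.06, and Cd3d, Cd2 and Cd8a by 0.06, 0.02 and 0.05. The dendritic list differed by 0.04, -0.57, -0.71 and -0.27 in experiments 1 to 4. The mast cell and eosinophil list differed by -0.09, 1.25, 0.57 and 0.08. The fibroblast and preadipocyte list ran from 7.29 to 8.81 on HFD arrays and from 5.85 to 8.28 on LFD arrays, and the adipocyte list from 5.20 to 6.42 on HFD arrays and from 5.55 to 6.41 on LFD arrays. Of the epididymal epithelium markers, all 8 measured were dim on all 8 arrays. The part of these lists in the results below was not tested.

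No gene of the array passed an adjusted p of 0.05 in the limma comparison of HFD with LFD, and no member did (the smallest adjusted p, in limma, was 0.982). At an unadjusted p under 0.05 the comparison held 1 member that was higher, Cox10, where 621 of all genes (3.3%) were higher, and 0 that were lower, where 284 (1.51%) were. Experiment numbers pair the arrays, and with experiment as a block 5 members were higher at an unadjusted p under 0.05 (Sdhb, Sdhc, Uqcrc1, Cox10 and Cox17; 7.95% of all genes) and 1 was lower (Cox6b2; 4.16%), but again none passed the adjusted threshold, with a smallest adjusted p of 0.163 in limma. The values that follow are therefore given as measured levels, with no member called.

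Across the 30 members the median difference was 0.10, where the median of all genes was 0.00, and 20 members were higher and 10 lower in HFD by their mean. Of all genes, 51.3% were higher by their mean. The median of the members was 0.03, 0.19, 0.14 and 0.07 in experiments 1 to 4, and 17, 23, 23 and 18 of them were higher in HFD. Of the members, 10 (33.3%) were higher in HFD in all 4 experiments, where 11.0% of all genes were, and 1 was lower in all 4, where 7.43% of all genes were. No member had HFD and LFD levels that did not overlap, in a background of 1.19% higher and 0.68% lower. With a difference over 0.05 asked for in each, 5 members were higher in all 4 (7.67% of all genes) and 1 was lower (4.42%). Many genes of the array are dim, whereas 29 members passed a filter asking for levels above the dim limit on at least 4 arrays. Of these 29, 10 (34.5%) were higher in all 4 experiments and 0 lower, with a median of 0.10. Of the 10623 genes past that filter, 16.0% were higher and 8.62% lower, with a median of 0.026. The members' median was 0.045 with each array centred on its median over the genes and 0.037 after quantile normalisation, where the medians of all genes were -0.05 and -0.01. The count of 10 depended on the scaling: with centred arrays it was 1 (Sdhc, in a background of 6.23%), with 2 lower in all 4 (Uqcr11 and Cox6b2, 12.3%), and after quantile normalisation it was 6 (9.95%), with 3 lower (10.7%). The split of 20 higher and 10 lower by their mean stood under each scaling. In RNA of a pool of cells, fewer cells of a type and less RNA per cell cannot be told apart.

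**Figure D1:**
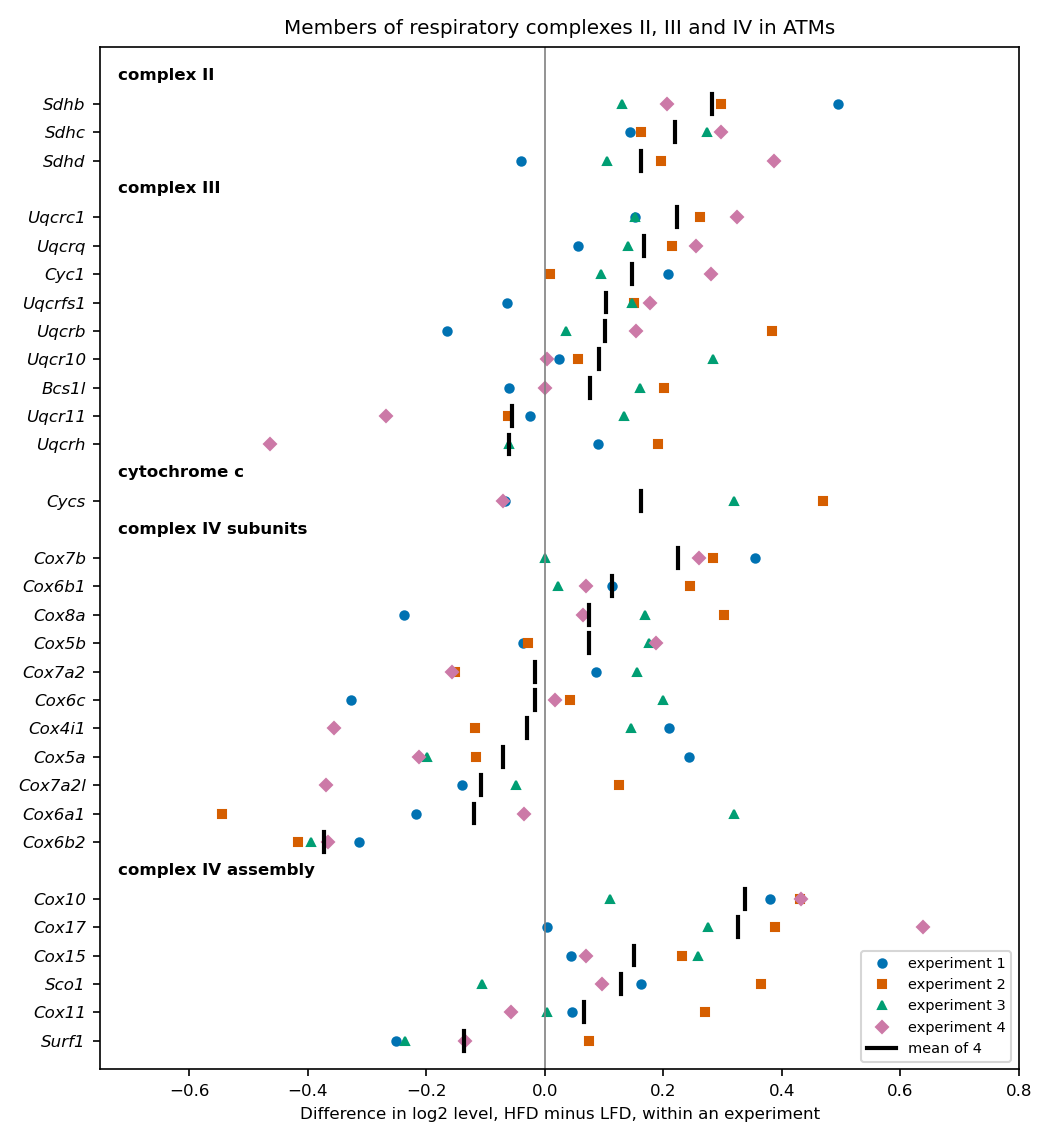
Difference in log2 level between HFD and LFD ATMs (horizontal axis) of each of the 30 measured members (vertical axis), grouped by complex, with a point for each of the 4 experiments and a bar for the mean. Complex II and the heme A and copper factors lie mostly right of 0, the complex IV subunits lie on both sides, and Cox6b2 is left of 0 in all 4 experiments.

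All 3 listed members of complex II, which leave out its subunit Sdha, had a higher mean in HFD ATMs. Their differences ran from 0.16 to 0.28, with a median of 0.22. Sdhb, the iron-sulphur subunit that leads electrons from the flavin towards ubiquinone, stood at 7.90, 8.04, 8.31 and 8.13 on the HFD arrays of experiments 1 to 4 and at 7.41, 7.74, 8.18 and 7.93 on the LFD arrays. Its HFD array was the higher one in every experiment, while the ranges of the diets overlapped. The means were 8.10 ± 0.17 in HFD and 7.81 ± 0.33 in LFD (SD, n = 4 each), a difference of 0.28 with an SE of 0.17, or of 0.09 with experiment as a block (95% interval 0.05 to 0.51, limma adjusted p = 0.325).

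Sdhc, which anchors the enzyme in the inner membrane and helps bind ubiquinone, had levels of 8.06, 8.39, 8.63 and 8.54 on the HFD arrays and 7.92, 8.23, 8.36 and 8.25 on the LFD arrays. The differences by experiment lay close together, between 0.14 and 0.30, and it was higher in all 4 experiments under each scaling. The mean difference was 0.22 (SE 0.15, or 0.08 with the block, limma adjusted p = 0.362 with the block). Sdhd, the other membrane anchor, was higher in HFD in 3 of 4 experiments, with a difference of 0.16 (SE 0.18). Of 5 other genes of complex II, 2 were higher and 3 lower by their mean, with a median of -0.00, and none had an unadjusted p under 0.05. Sdha, the remaining subunit of the enzyme, was among these 5. It differed by -0.06, 0.23, -0.17 and 0.17 in experiments 1 to 4, with a mean difference of 0.04 (SE 0.13).

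**Figure D2:**
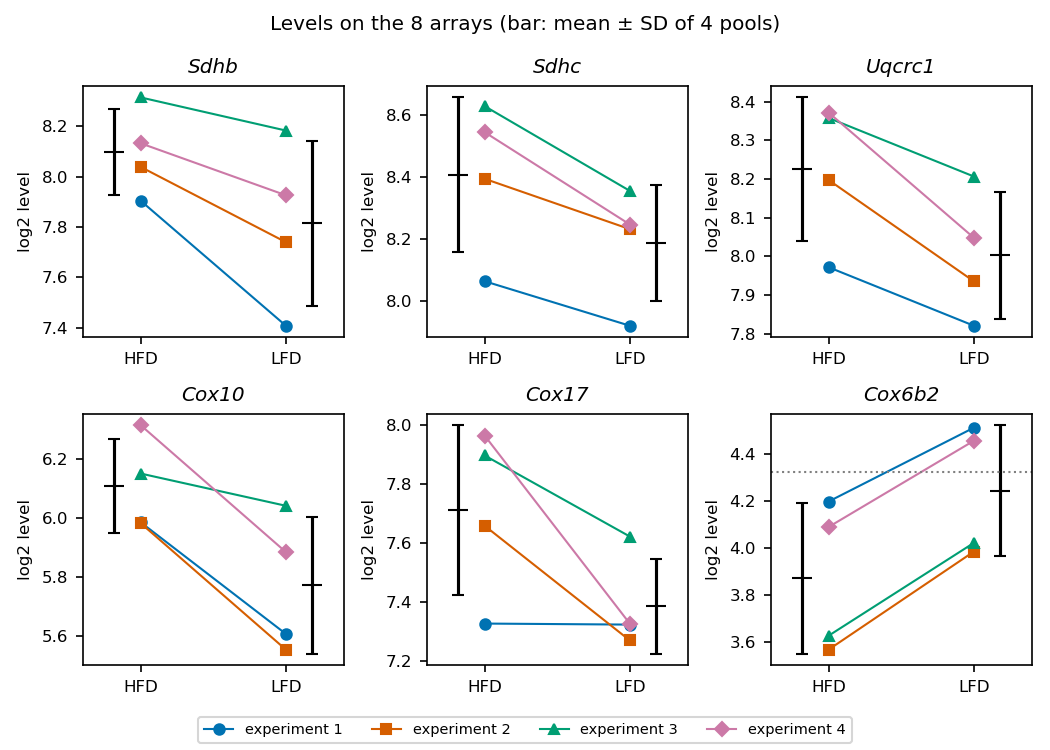
Deposited log2 level (vertical axis) of Sdhb, Sdhc, Uqcrc1, Cox10, Cox17 and Cox6b2 on the 4 HFD and 4 LFD arrays (horizontal axis), with arrays of 1 experiment joined by a line, bars at the mean ± SD of 4 pools and, for Cox6b2, a dotted line at the limit of dim signals. Within each panel the lines slope the same way, although that of Cox17 in experiment 1 is almost level, and the diets overlap in all 6 panels.

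Of the 9 members of complex III, 7 had a higher mean in HFD and 2 a lower one, with a median of 0.10. The core subunit Uqcrc1 had levels of 7.97, 8.20, 8.36 and 8.37 on the HFD arrays and 7.82, 7.94, 8.21 and 8.05 on the LFD arrays. It was higher on the HFD array by 0.15 to 0.32 in each experiment, with a mean difference of 0.22 (SE 0.12, or 0.08 with the block, limma adjusted p = 0.362 with the block). Uqcrq, a small subunit that binds near cytochrome b, stood at 7.04, 7.23, 7.32 and 7.49 in HFD and 6.98, 7.02, 7.18 and 7.23 in LFD, a difference of 0.17 (SE 0.11).

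Cyc1, the cytochrome c1 that hands electrons to cytochrome c, had levels of 6.86, 6.87, 6.98 and 7.06 in HFD and 6.65, 6.86, 6.89 and 6.78 in LFD. It was higher in HFD in all 4 experiments, by 0.01 in experiment 2 and by 0.28 in experiment 4, with a mean difference of 0.15 (SE 0.09). Uqcr10, a small subunit, stood at 6.73, 7.01, 7.27 and 7.12 in HFD and 6.71, 6.96, 6.98 and 7.11 in LFD. It was higher in HFD by 0.28 in experiment 3 and by at most 0.06 in the others, with a mean difference of 0.09 (SE 0.14). The iron-sulphur (Rieske) subunit Uqcrfs1 and Uqcrb differed by 0.10 each (SE 0.08 and 0.10) and were lower in HFD in experiment 1 alone. Bcs1l, which inserts the Rieske protein, differed by 0.08 (SE 0.07). Uqcrh and Uqcr11 each differed by -0.06 (SE 0.11 and 0.10), and for both the lowest difference was that of experiment 4 (-0.46 and -0.27). All 5 other genes of complex III were lower in HFD by their mean, with a median of -0.02, and none had an unadjusted p under 0.05.

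Cycs, which carries electrons between complexes III and IV and also takes part in apoptosis, had no single direction. Its levels were 8.80, 8.98, 9.0 and 8.88 in HFD and 8.87, 8.51, 8.68 and 8.96 in LFD. It was higher in HFD by 0.47 and 0.32 in experiments 2 and 3 and differed by -0.07 in both experiments 1 and 4, for a mean difference of 0.16 (SE 0.11).

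The subunits of complex IV lay on both sides of 0. Of 11, 4 had a higher and 7 a lower mean in HFD, with a median of -0.02 (0.03 without experiment 4) and experiment medians of -0.04, -0.03, 0.15 and -0.03. The split depends on the make-up of the list. Its lower members include the supercomplex factor Cox7a2l and Cox6b2, dim on 6 arrays, and it leaves out Ndufa4 (difference 0.24). Cox7b, a small subunit of the membrane part, stood at 8.52, 8.72, 8.57 and 8.83 in HFD and 8.16, 8.44, 8.57 and 8.57 in LFD. Its deposited value was identical on both arrays of experiment 3, and it was higher in HFD by 0.26 to 0.36 in the others (mean difference 0.23, SE 0.12). Cox4i1, which binds the ATP that slows the enzyme, stood at 8.31, 8.21, 8.14 and 8.20 in HFD and 8.10, 8.33, 7.99 and 8.56 in LFD, higher in HFD in experiments 1 and 3 and lower in experiments 2 and 4. Cox5a, Cox5b, Cox6a1, Cox6c and Cox8a, all structural subunits, had mean differences between -0.12 and 0.08 with SEs from 0.12 to 0.15, and none kept a single sign over the experiments.

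Paralogous forms were set side by side. Cox6b1, the common form of the subunit that faces the intermembrane space and joins the dimer, stood at 9.37, 9.62, 9.47 and 9.63 in HFD and 9.25, 9.37, 9.45 and 9.56 in LFD. It was higher in HFD in all 4 experiments, with a mean difference of 0.11 (SE 0.10). Cox6b2, the form known from testis, stood at 4.20, 3.57, 3.63 and 4.09 in HFD and 4.51, 3.99, 4.02 and 4.46 in LFD. Its differences of -0.31, -0.42, -0.39 and -0.37 lay closer together than those of the other members named, and the mean difference was -0.37 (SE 0.20, or 0.07 with the block, 95% interval with the block -0.56 to -0.19, limma adjusted p = 0.163 with the block). All 4 HFD arrays and 2 of 4 LFD arrays were below the limit of dim signals, so that this difference was read close to the floor of the array. Of the male germ cell markers (10 of 11 measured), 9 were dim on all 8 arrays, and the list averaged 2.97 to 3.06 on HFD arrays and 2.97 to 3.04 on LFD arrays.

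Cox7a2, a subunit of the dimer interface, stood at 7.17, 7.17, 7.17 and 7.21 in HFD and 7.08, 7.32, 7.01 and 7.37 in LFD. The HFD arrays were almost level (SD 0.02) and the LFD arrays spread on both sides of them (SD 0.18), with a mean difference of -0.02 (SE 0.10). Its relative Cox7a2l, also called SCAF1, which joins complexes III and IV into a supercomplex, stood at 8.49, 8.78, 8.63 and 8.51 in HFD and 8.63, 8.66, 8.68 and 8.88 in LFD, a difference of -0.11 (SE 0.10). It was lower in HFD in 3 of 4 experiments. C57Bl/6 mice are known to carry a shortened form of its protein, which levels of RNA do not show.

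**Figure D3:**
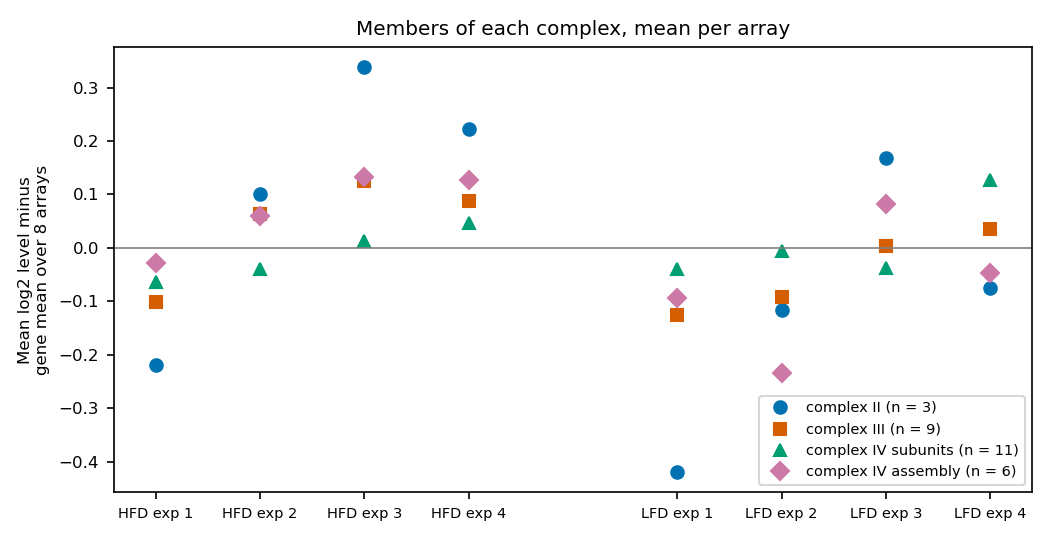
Mean over the measured members of each complex of the log2 level, each gene centred on its mean over the 8 arrays (vertical axis), on the 4 HFD and 4 LFD arrays (horizontal axis, labelled by experiment), with a symbol for each complex. Complex II runs from -0.22 to 0.34 on HFD arrays and from -0.42 to 0.17 on LFD arrays and is higher on the HFD array of each experiment, while the complex IV subunits stay within -0.06 and 0.13 on all arrays.

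The assembly factors of complex IV had a median difference of 0.14, with 5 of 6 higher in HFD by their mean. Cox10, which adds the farnesyl tail in the first step from heme B to heme A, had levels of 5.99, 5.98, 6.15 and 6.32 in HFD and 5.61, 5.55, 6.04 and 5.88 in LFD. Its means were 6.11 ± 0.16 in HFD and 5.77 ± 0.23 in LFD (SD, n = 4 each). It was higher in HFD by 0.38, 0.43, 0.11 and 0.43, with a mean difference of 0.34 (SE 0.14, limma adjusted p = 0.982, or SE 0.09 and limma adjusted p = 0.251 with the block). Cox15, which carries out the next step to heme A, had levels of 6.16, 6.34, 6.64 and 6.25 in HFD and 6.12, 6.11, 6.38 and 6.18 in LFD, higher in HFD in all 4 experiments with a mean difference of 0.15 (SE 0.12).

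Cox17, the copper chaperone that passes copper to Sco1 and Cox11, stood at 7.33, 7.66, 7.90 and 7.96 in HFD and 7.32, 7.27, 7.62 and 7.33 in LFD. The difference was 0.00 in experiment 1 and 0.39, 0.27 and 0.64 in experiments 2, 3 and 4, with a mean of 0.33 (SE 0.16, or 0.12 with the block, limma adjusted p = 0.380 with the block). Sco1, which delivers copper to the site that receives electrons from cytochrome c, stood at 5.08, 4.91, 5.04 and 5.08 in HFD and 4.92, 4.54, 5.15 and 4.98 in LFD, a difference of 0.13 (SE 0.13) with experiment 3 the other way. Cox11, which serves the other copper site, differed by 0.07 (SE 0.09). Surf1, which helps insert heme A, was the member of this group with a lower mean in HFD (-0.14, SE 0.11) and was lower in 3 of 4 experiments. The study itself shows, from these same arrays, the genes of oxidative phosphorylation that differed most, so the directions of the members given here are not independent evidence.

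Of 20 further assembly factors of complex IV measured, of 22 listed, 7 were higher and 13 lower in HFD by their mean (median -0.05), and none had an unadjusted p under 0.05 without the block. Cox20, which guards the copper-bearing subunit before it is joined, stood at 8.61, 8.00, 8.16 and 7.71 in HFD and 8.76, 8.95, 9.17 and 7.99 in LFD, lower in all 4 experiments (difference -0.60, SE 0.29). Tmem177, dim on all 8 arrays, was lower in all 4 as well (difference -0.27, SE 0.13). In the other direction, Lrpprc (0.17, SE 0.09) and Cmc2 (0.24, SE 0.16) were higher in all 4 experiments. The genes that supply copper and heme had a median of -0.04, with 3 of 10 higher in HFD. Alas1, which makes the first product of heme synthesis and sets its rate, was among the 3, at 8.82, 9.17, 9.29 and 9.71 in HFD and 7.73, 8.10, 8.85 and 8.86 in LFD. It was higher in all 4 experiments (difference 0.86, SE 0.30), at an unadjusted p of 0.022 and an adjusted p of 0.982 in limma, or 0.107 with the block. Atp7a, a copper pump, was higher in all 4 experiments too (difference 0.55, SE 0.24, limma adjusted p = 0.198 with the block).

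Of 9 forms of complex IV subunits and cytochrome c known from other tissues, Cox8c, Cox7b2, Cox8b and the testis cytochrome c Cyct were dim on all 8 arrays. The muscle forms Cox6a2 and Cox7a1 were dim on 0 and 2 arrays and differed by 0.04 (SE 0.32) and -0.10 (SE 0.24). Ndufa4, once counted with complex I and now known as a subunit of complex IV, was higher in HFD in all 4 experiments, by 0.15 to 0.35, with a mean difference of 0.24 (SE 0.10, limma adjusted p = 0.982, or 0.331 with the block). Cox4i2, the form known from lung, stood at 6.04 on the HFD array and 6.23 on the LFD array of experiment 1 and between 4.14 and 4.56 on the other 6, so that it was highest in the experiment where the endothelial list was highest. Ndufa4l2, a relative of Ndufa4, differed by 1.93 in experiment 3 and by -0.43, -0.48 and -0.97 in experiments 1, 2 and 4. It too was highest in experiment 1 (8.08 on the HFD array and 8.51 on the LFD array), and the endothelial list differed in the same directions, by 1.98 in experiment 3 and by -0.34, -0.90 and -1.71 in experiments 1, 2 and 4.

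Other parts of the respiratory chain were read in the same way. Complex I, which takes electrons from NADH, had a median of -0.03, with 12 of 34 measured subunits higher and 22 lower in HFD. Of these Ndufc2 had the smallest p (difference -0.37, SE 0.13) and was lower in all 4 experiments, while Ndufc1 differed by 0.31 (SE 0.13). ATP synthase with its inhibitor Atpif1, which had the largest difference of that list (0.34), had a median of 0.06 with 10 of 15 measured genes higher, and without Atpif1 a median of 0.04 with 9 of 14 higher. Atp5a1 (0.20, SE 0.11), the alpha subunit, and Atp5b (0.18, SE 0.09), the beta subunit with the catalytic sites, were higher in all 4 experiments. A list named mitochondrial mass held genes of the outer and inner membranes, the import machinery and the matrix, and was read as RNA only. It had a median of 0.24, with 15 of 16 higher in HFD, 8 of them in all 4 experiments. Of all genes, 51.3% were higher by their mean and 11.0% in all 4 experiments (16.0% of those past the dim filter). The list was drawn up with earlier results of these data known, and its counts were not taken under the other scalings. The pore protein Vdac2 (0.59, SE 0.22) and the import receptor Tomm22 (0.28, SE 0.10) had an unadjusted p under 0.05 in limma and an adjusted p of 0.982. Of the regulators of mitochondrial genes 8 of 12 measured were higher in HFD (median 0.06), among them Myc (0.59), while Tfam, which packs mitochondrial DNA and starts its transcription, differed by -0.23 and Yy1 by -0.11. Ppargc1a, a coactivator that drives mitochondrial growth, differed by 0.30 but was dim on all 8 arrays. The 13 genes of mitochondrial DNA had no probe set with 1 symbol and were not analysed here.

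**Figure D4:**
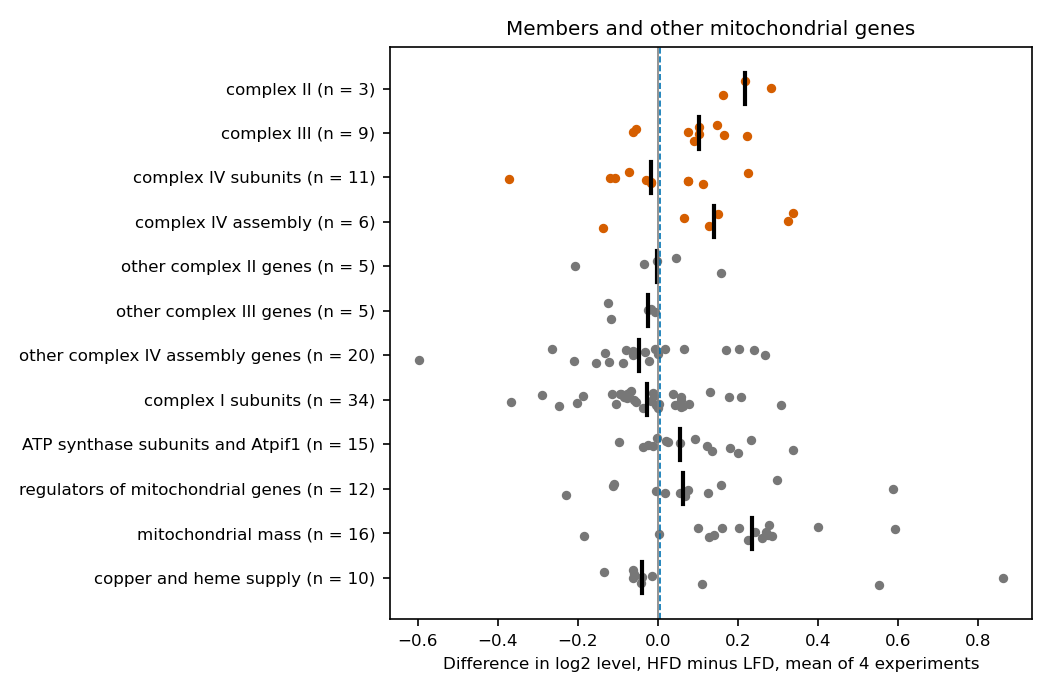
Difference in log2 level between HFD and LFD ATMs (horizontal axis) of each measured gene of the respiratory complexes and of the other lists (vertical axis), with the median of each list as a bar and the median of all genes as a dashed line. The mitochondrial mass list has its median at 0.24 and the 3 complex II members, without Sdha, at 0.22. The medians of complex I and the complex IV subunits lie near the line.

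The sum of squares of the members was split by experiment (3 degrees of freedom), diet (1) and the rest (3). Experiment held 56.6% of the sum of squares pooled over the members, diet 22.8% and the rest 20.6%. Pooled over all genes, experiment held 72.5%, diet 11.7% and the rest 15.7%. Pooling gives most weight to the genes with the largest spread, so these shares do not compare a typical member with a typical gene. Experiment has more degrees of freedom than diet, so their shares are not directly comparable. The pooled share of diet was 33.1% for the complex IV assembly factors, 21.2% for complex II, 20.7% for complex III and 18.0% for the complex IV subunits. In the last group single members ran from 0.33% (Cox6c) to 37.2% (Cox7b). Cox6b2, dim on 6 arrays, weighed most in the pooled share, since its difference was the largest in size. The LFD array of experiment 1 was the lowest of the 8 for Sdhb, Sdhc, Cyc1, Uqcrc1, Uqcrq, Uqcr10, Cox6b1 and Cox7b, and also for Cox5a, whose mean was lower in HFD, on an array where the macrophage list was lowest and the endothelial list highest. Without experiment 1, 15 members were higher in HFD in the 3 remaining experiments, where 17.4% of all genes were, and 2 were lower, where 12.2% were.

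The HFD had 60 kcal% fat in 2 experiments and 45 kcal% in 2, and the difference between diets was compared between them with limma. No gene passed the adjusted threshold (743 of all genes, or 3.95%, had an unadjusted p under 0.05), and 0 members had an unadjusted p under 0.05. Cox4i1 differed by -0.24 at 60 kcal% and by 0.18 at 45 kcal%, a change of -0.41 (SE 0.18, 95% interval -0.89 to 0.06, limma adjusted p = 0.951). Cox17 differed by 0.51 at 60 kcal% and by 0.14 at 45 kcal%, a change of 0.37 (SE 0.20). Per the labels the time on the diet differed between these experiments too, whereas the study's methods give a single length, and with 2 experiments each it cannot be told apart from the fat content.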

How the data were processed

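Gene levels were measured on 8 Affymetrix arrays, 4 per diet, 1 pool of ATMs each. Values were deposited by the authors on the log2 scale, and the submitters' processing notes name RMA; the version is not given in the sources used here, and the study's supplementary methods on the arrays were not used here. RMA sets the arrays to a shared distribution, and the array medians were 4.25 to 4.39 over all features. Over the analysed genes the HFD median minus the LFD median was 0.07, 0.07, 0.16 and -0.08 in experiments 1 to 4, which is what median centring removes. The table held 35556 features, of which 21218 had 1 symbol in the array's annotation table, 1881 several and 12457 none. Members and gene lists were chosen with earlier results of these data known.

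HFD was compared with LFD over all 18820 genes by moderated linear models (limma 3.58.1 under R 4.3.3), and p-values were adjusted by the method of Benjamini and Hochberg and read at 0.05. The deviations of same-numbered arrays from the means of their diets were correlated across genes, which do not count as replicates (r of 0.889, 0.357, 0.652 and 0.186), although the HFD array of experiment 4 (0.656) and that of experiment 2 (0.374) correlated more with the LFD array of experiment 3. The number, which the labels give as the experiment, was taken to pair them, and the fit with experiment as a block is given beside the first. The comparison of fat contents held the block. The fits were tested on simulated data, with planted changes larger than the mean difference of any member. That test therefore does not show whether changes of the members' size could be found. Levels on every array are given for members with an unadjusted p under 0.05 in either fit, those of 1 sign in all 4 experiments, the largest difference of each complex, and paralogous pairs. Cox7b and Cox4i1, with levels on every array, and the other members, with differences, were described after their values were seen. Up to 2 genes per direction of other lists are named by their p. Alternatives were the block, leaving out arrays or experiments, 2 scalings, a filter on dim probe sets, the mean of probe sets, a trended prior and the methods' t-test. Promoter letters were counted in RefSeq windows of 300 bases. The number of arrays limits the precision.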

Additional observations from a re-analysis of the deposited data

Results flagged for a closer look

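In 3 of the 60 groups of 4 arrays, 1 array lay far from the other 3, and chance gives about 1 in 20 such groups. Cox5b stood at 8.21 on the LFD array of experiment 1, against 8.43 to 8.46 on the other LFD arrays. Cox7a2 stood at 7.21 on the HFD array of experiment 4 and at an identical deposited value of 7.17 on each of the other HFD arrays. With those values tied, any gap would be flagged, and this gap is small. Cox17 stood at 7.62 on the LFD array of experiment 3, against 7.27 to 7.33 on the other LFD arrays.

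Of the 30 members, 2 (Cox4i1 and Cox7a2) had opposite directions in both experiments of each fat content. The share of all genes with such signs was not counted, so this count is not read as an effect of fat content. The difference at 60 kcal% minus that at 45 kcal% was -0.41 for Cox4i1 (SE 0.18) and -0.28 for Cox7a2 (SE 0.16), and limma gave an adjusted p of 0.951 for both.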

How the results depend on the processing

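No member passed the adjusted threshold in limma under any alternative run. Over all genes the count was 0 in each, except 25 when the filter on dim probe sets was combined with the replicate block and 70 when median centring was, both chosen after seeing the data. The replicate block changed no adjusted call of a member. At an unadjusted p under 0.05, the 1 higher and 0 lower members became 5 and 1 with the replicate block, fixed or random, 2 higher without experiment 1, 2 and 1 without it and with the block, 0 and 1 under median centring (with or without the block), 0 higher after quantile normalisation, with a trended prior or by the methods' t-test, 2 and 1 with the mean of probe sets, and 5 higher with the dim filter and the block. With the block, 1 was lower without experiment 2, 4 were higher and 1 lower without experiment 3, and 2 and 1 without experiment 4, chosen after seeing the data. Leaving out 1 array gave 0 to 4 higher and 0 to 1 lower. The 10 members higher in every experiment became 1 under median centring, 6 after quantile normalisation and 5 when a difference over 0.05 was asked for. The 1 lower became 2 without experiment 1 or under median centring, 3 after quantile normalisation, with the mean of probe sets, or without experiment 2 or 3, and 0 under the dim filter, which removes Cox6b2. Of the 30 members, 22 kept their direction in every alternative and 8, with differences of at most 0.12 in size, did not. With 1 array left out, Uqcrh ran from -0.11 to 0.017, Uqcr11 -0.11 to 0.020, Cox4i1 -0.11 to 0.076, Cox6c -0.085 to 0.073, Cox7a2 -0.078 to 0.043, Cox8a -0.031 to 0.17 and Cox11 -0.0036 to 0.11. With the block and without experiment 4, Uqcrh was at 0.074, Uqcr11 at 0.016, Cox4i1 at 0.079 and Cox7a2 at 0.031, and without experiment 2, Cox6a1 at 0.023, Cox7a2 at 0.029, Cox8a at -0.0010 and Cox11 at -0.0018. Cox6c was at 0.087 without experiment 1, with or without the block, and Uqcr11 at 0.046 with the mean of probe sets. The median of the complex IV subunits, -0.02, turned to 0.031 without experiment 4. The median of complex III, 0.10, was 0.050 and 0.043 under centring and quantile normalisation. The fat contents gave 0 in each alternative.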

Other observations

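Second probe sets of the members gave further values. Cox7b was higher in HFD in all 4 experiments on its dimmer probe set, with a mean difference of 0.25, and Uqcr10 was too, with 0.31. Uqcr11 differed by 0.15 on its dimmer probe set, against -0.06 on the brighter one. Uqcrh was lower in HFD in all 4 experiments on its dimmer probe set, by -0.80, -0.25, -0.66 and -0.24, and in 2 of 4 on the brighter one. The dimmer probe set averaged 4.74 and stood at 3.97 on the HFD array of experiment 1, below the limit of dim signals (4.32).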
